A study of Homo sapiens with 6 samples.

Results

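This is an account of the MAGE and CSAG genes that have close relatives on the X chromosome, in human lung adenocarcinoma cells that received extra SAM68. The members were 10 genes, chosen by symbol: MAGEA2, MAGEA3, MAGEA6, MAGEA12, MAGED1, MAGED2, MAGED4, MAGED4B, CSAG1 and CSAG3. Every row of the 5 splicing tables that carried one of these symbols was used, with no minimum of reads, which gave 41 of 78223 events from 9 of 11653 genes. MAGEA3 had no row in any of the 5 tables. The group was drawn up with the call of the CSAG3 event between SAM68 and control cells already known, so the counts of calls below are descriptions of these libraries.

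NCI-H1975 is an established human line from a lung adenocarcinoma. It was transfected with a lipofectamine reagent and 2 µg per well of a PCDNA3.1 plasmid carrying SAM68 (the SAM68 group, 3 libraries) or of the PCDNA3.1 plasmid alone (the control group, 3 libraries), and RNA was taken after 48 h. SAM68, encoded by KHDRBS1, is an RNA-binding protein of the STAR family that takes part in alternative splicing. All libraries come from this 1 line, and the study's methods call those of a group biological replicates, with no further word on how they were kept apart. The p-values for genes and for shares of reads rest on the spread between these libraries. Those for events rest on a spread shared by all events of a type, not on that of the event itself. Within each group the libraries are called 1, 2 and 3 after their order in the deposited lists, which carry no sample numbers. The plasmid drives SAM68 from the promoter of the vector, and each value is an average over all cells, with or without plasmid, so fewer cells with an RNA cannot be told apart from less RNA per cell.

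MAGE proteins share a MAGE homology domain, through which many of them bind RING-type ubiquitin ligases and alter which proteins these mark for degradation. The type I genes, MAGEA among them, are cancer-testis genes: they are silent in most adult tissues outside the testis, where their promoters are methylated, and are switched on in many tumours. The type II genes, such as MAGED1 and MAGED2, are expressed in many tissues. The CSAG genes are small cancer-testis genes that lie beside MAGEA genes and were first described in chondrosarcoma. Several of these genes arose by duplication, and a read from an exon that 2 copies share can be placed on either copy.

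On GRCh38 with GENCODE 44, the members of the MAGEA and CSAG families lay close together. MAGEA2 (chrX:152749863-152753884, minus strand) and its copy MAGEA2B (chrX:152714586-152718607, plus strand) were each 4022 bases long and differed at 0 bases. CSAG3 (chrX:152753921-152760222, plus strand) lay next to MAGEA2, and CSAG2 (chrX:152708261-152714549, minus strand) next to MAGEA2B. CSAG3 and CSAG2 differed by 33 edits, an identity of 99.5%. MAGEA3 (chrX:152698767-152702347) and MAGEA6 (chrX:152766136-152769716) differed at 27 of 3581 bases. MAGEA12 (chrX:152733757-152737669) and CSAG1 (chrX:152727484-152733735) stood further from their relatives, with identities of 88.2% between MAGEA12 and MAGEA2 and 90.8% between CSAG1 and CSAG3. Among the type II genes, MAGED4 (chrX:52184876-52192268) and MAGED4B (chrX:52061827-52069219) were 7393 bases each and differed at 0 bases. MAGED1 (chrX:51803007-51902354) and MAGED2 (chrX:54807599-54816015) had no such copy in the set.

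The sequences below are the joined exon ends that a junction read has to cross, 15 bases of each exon, read from GRCh38 on the transcribed strand, 5′ to 3′, with the join between bases 15 and 16. They are shown to compare the copies at the joins, and bases further along a read may also differ between copies. Capitals mark bases that differ from the first sequence of a set. The first set is the join of the 120-base exon to the next exon in the 5′ UTR of MAGEA2 and MAGEA2B.
MAGEA2: ggtggagagcctgaggttctgagggggaca
MAGEA2B: ggtggagagcctgaggttctgagggggaca
The next set is the coding junction of CSAG3 and CSAG2 that the alternative 5′ splice site changes, first in its long and then in its short form.
CSAG3 long: agaagccctatcaaagttcccaagacaacc
CSAG2 long: agaagccctatcaaagttcccaagacaacc
CSAG3 short: accaacaccaaagaggttcccaagacaacc
CSAG2 short: accaacaccaaagaggttcccaagacaacc
In all 3 comparisons the windows were also identical when 60 bases, 30 of each exon, were compared. CSAG1, by contrast, has a junction that resembles the CSAG3 short form and differs at 1 of 30 bases, and at 3 of 60.
CSAG1: aTcaacaccaaagaggttcccaagacaacc
The junction into the 43-base coding exon was the MAGED1 junction most like one of MAGED4B, and it differed at 1 of 30 bases and at 1 of 60.
MAGED4B: accgtgccagcgaggctgtcctctgggagg
MAGED1: accgtgccagTgaggctgtcctctgggagg
A MAGEA12 junction in the 5′ UTR matched one of MAGEA2 over 30 bases but differed at 3 of 60, so a longer stretch of a read separates them.

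When the window of up to 60 bases around each junction was looked for among all annotated transcripts, the windows of CSAG1, MAGEA6, MAGEA12, MAGED1 and MAGED2 were found in no other gene. Windows of MAGEA2 were found in MAGEA2B, those of CSAG3 in CSAG2, those of MAGED4 in MAGED4B, and the reverse. Of the 41 events of the members, 35 had a mean of at least 10 reads per library and were tested. Of these 35, 26 events had windows in no other gene and 9 had at least 1 window that a copy shares.

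The 6 libraries held 16951876 to 19737729 junction reads each in the skipped-exon table. KHDRBS1, the gene put in, was read 1805, 2064 and 1889 times on its most-read event in control cells and 7798, 6865 and 6956 times with SAM68. The groups did not overlap, and the log2 difference in RPM, reads per 1000000, was 1.98 ± 0.047 (SE; limma, adjusted p = 1.16e-21). Of the epithelial markers fixed for this line, 4 of 9 genes were in the tables, among them the keratins KRT8 and KRT18, and 0 of the 4 passed the thresholds, while 3 had an unadjusted p under 0.05 in limma, as 12.1% of all genes did. Their log2 differences were -0.89 for KRT7, -0.40 for KRT8, 0.12 for KRT18 and 0.43 for MUC1. KRT8 had 3014, 1590 and 1413 reads in control and 1573, 1279 and 1251 in SAM68, so that control library 1 stood apart, and KRT7 had 26, 19 and 21 reads in control and 8, 10 and 12 in SAM68. Their part in the results below was not tested. Their summed level was 734 to 997 RPM in control and 763 to 775 in SAM68. Of the fibroblast and endothelial markers, 0 of 6 and 0 of 4 were in the tables, and of the leukocyte markers 1 of 5, CD68, which tumour cells can also express, at 92.0 to 102 RPM in control and 98 to 104 in SAM68. A gene without an alternative event has no row, so absence from the tables is not absence of expression.

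Each gene's level was read from the event with most reads, as RPM, its reads per 1000000 reads summed over such events of all genes. RPM values were not divided by length, so levels are compared between groups and not between genes. The genes whose junctions were in no other gene are given first. MAGED1, a type II MAGE known as NRAGE that binds the p75 neurotrophin receptor, had 542, 565 and 521 reads in control and 593, 519 and 448 in SAM68. In RPM this was 90.2 ± 3.15 against 90.3 ± 7.11 (SD, n = 3 each), and the groups overlapped. MAGED2, a type II gene needed for salt handling in the fetal kidney, had 601, 630 and 629 reads against 728, 570 and 633. Its level was 103 ± 2.54 RPM in control and 112 ± 6.32 in SAM68, a log2 difference of 0.12 ± 0.080 (SE; limma, adjusted p = 0.592).

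CSAG1 had 523, 602 and 588 reads in control and 604, 637 and 574 in SAM68. Its log2 difference was 0.15 ± 0.088 (SE; limma, adjusted p = 0.504), and the groups overlapped. MAGEA12, a type I gene, had 237, 188 and 218 reads against 205, 199 and 185, and MAGEA6, whose protein binds the ligase TRIM28, had 118, 152 and 153 against 176, 140 and 124. The log2 differences were -0.05 ± 0.13 for MAGEA12 (SE; limma, adjusted p = 0.913) and 0.12 ± 0.15 for MAGEA6 (adjusted p = 0.802). Among these 5 genes the largest ratio between the libraries of a group was 1.37, in the control libraries of MAGEA12.

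**Figure D1:**
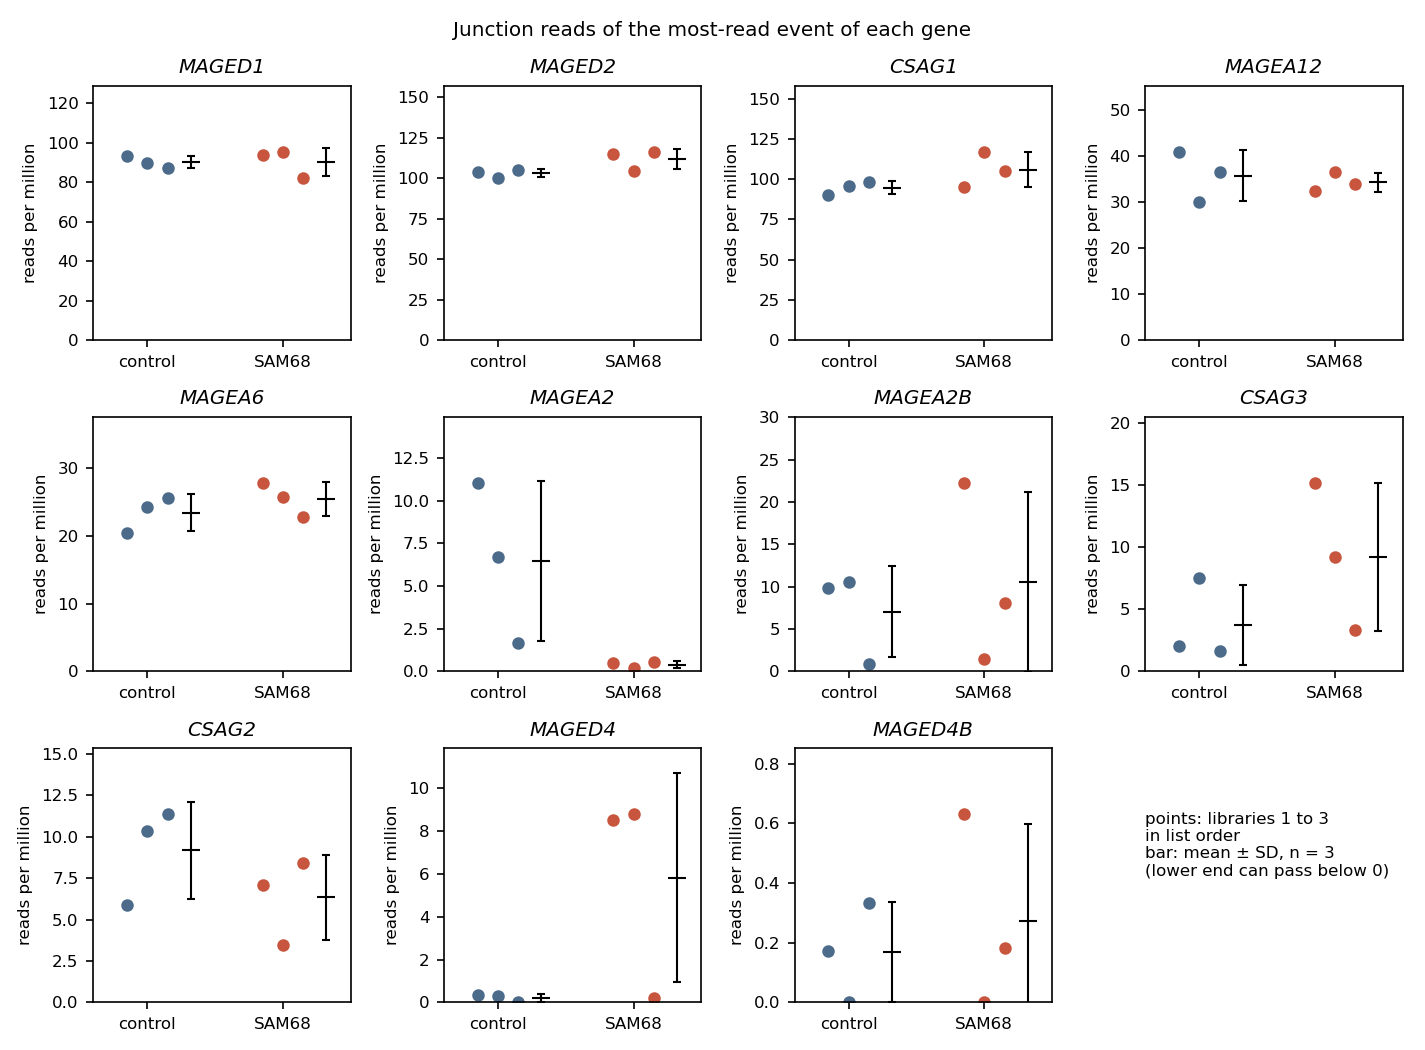
RPM on the most-read event of each gene in the 3 control and 3 SAM68 libraries (points, in list order), with the mean and SD beside them; each panel has its own vertical axis from 0. MAGED1, MAGED2, CSAG1, MAGEA12 and MAGEA6 keep to a narrow band, whereas MAGEA2, MAGEA2B, CSAG3 and MAGED4 each run from 1.67 or less to 8.81 or more RPM. SD bars that pass below 0 end at the axis.

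MAGEA2 had 64, 42 and 10 reads in control and 3, 1 and 3 in SAM68, so every SAM68 library was below every control library. The control libraries themselves differed 6.60-fold in RPM. The log2 difference was -2.67 ± 0.55 on the log2(RPM + 0.5) scale (SE; limma, adjusted p = 0.0239), which put MAGEA2 among 5 of 10147 genes past the thresholds of adjusted p under 0.05 and a log2 difference of at least 1, or 0.0493% of the genes tested, and among 4 that were lower in SAM68, or 0.0394%. MAGEA2 reached the minimum of 10 reads per library in the mean only through the control libraries, so this call is given as a description. With no minimum of reads the limma fit covered 11653 genes and gave an adjusted p of 0.0171. Groups of RPM that do not overlap were found in 16.8% of the genes. The call was lost without control library 1 (log2 difference -2.15, adjusted p = 0.325), without control library 2 (-2.50, 0.187) or without SAM68 library 1 (-2.74, 0.0665), each a limma fit. With each of the 6 libraries left out in turn the log2 difference ran from -3.36 to -2.15. The call was also lost when reads were summed over all skipped-exon events (log2 difference -1.65, limma, adjusted p = 0.198).

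MAGEA2B, with the identical sequence, had 57, 66 and 5 reads in control and 141, 8 and 44 in SAM68, and its groups overlapped. Its log2 difference was 0.45 ± 0.63 (SE; limma, adjusted p = 0.819). When the reads of both copies were added, the libraries held 121, 108 and 15 reads in control and 144, 9 and 47 in SAM68. The summed groups overlapped, and the log2 difference of the sum was -0.44 ± 0.57 (SE; limma, adjusted p = 0.803). With the copies summed, 0 of the members were past the thresholds.

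MAGEA2 received 52.9%, 38.9% and 66.7% of the reads of the pair in control and 2.08%, 11.1% and 6.38% in SAM68. The shares did not overlap, and the difference of -46.3 percentage points gave p = 0.1 in a two-sided exact permutation test, the smallest that 3 against 3 libraries allow (adjusted p = 0.25 over the 5 pairs of genes tested). Over all events of both genes the shares were 49.8%, 26.2% and 31.8% against 7.42%, 16.4% and 8.61%, again without overlap. The most-read events of the copies share their middle exon but not all exon lengths, and 2 other pairs of events had equal exon lengths in both copies. For the pair around a 79-base exon, the shares of MAGEA2 were 26.6%, 22.2% and 100% in control, the last on 1 read, and 2.91%, 40.0% and 0.0% in SAM68, which overlapped. For the pair around the 98-base exon described below, they were 71.6%, 7.14% and 75% in control and 61.0%, 100% and 23.1% in SAM68, on 4 to 81 reads. There the mean share was higher in SAM68, by 10.1 percentage points (exact permutation p = 0.7), so the direction of the difference depended on the event. This pair was added after the data were seen.

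CSAG3 had 12, 47 and 10 reads in control and 96, 50 and 18 in SAM68, and CSAG2 had 34, 65 and 68 against 45, 19 and 46. CSAG3 library values overlapped between the groups, with a log2 difference of 1.23 ± 0.45 (SE; limma, adjusted p = 0.234). With a library left out it ran from 0.77, without SAM68 library 1, to 1.82, without control library 2, and without SAM68 library 3 it was 1.80 and past the thresholds (limma, adjusted p = 0.0361). CSAG3 took 26.1%, 42.0% and 12.8% of the reads of the pair in control and 68.1%, 72.5% and 28.1% in SAM68. These shares overlapped (difference 29.3 percentage points, exact permutation p = 0.2, adjusted p = 0.25). The summed reads, 46, 112 and 78 against 141, 69 and 64, gave a log2 difference of 0.27 ± 0.25 (SE; limma, adjusted p = 0.726).

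MAGED4 and MAGED4B, the type II pair with no difference between the copies, were hardly read in 4 of the 6 libraries. MAGED4 had 2, 2 and 0 reads in control and 54, 48 and 1 in SAM68, so that SAM68 libraries 1 and 2 stood apart and SAM68 library 3 did not. MAGED4 reached the minimum of 10 reads per library in the mean only through the SAM68 libraries, so its log2 difference of 2.46 ± 0.73 (SE; limma, adjusted p = 0.129) is given as a description. It was 1.82 to 3.71 with a library left out, highest without SAM68 library 3. MAGED4B had 1, 0 and 2 reads in control and 4, 0 and 1 in SAM68, too few to be tested. The reads of MAGED4 lay mainly on the spliced form of 2 retained-intron events, and the reads of MAGED4B on other junctions, so no event of the pair could be matched.

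**Figure D2:**
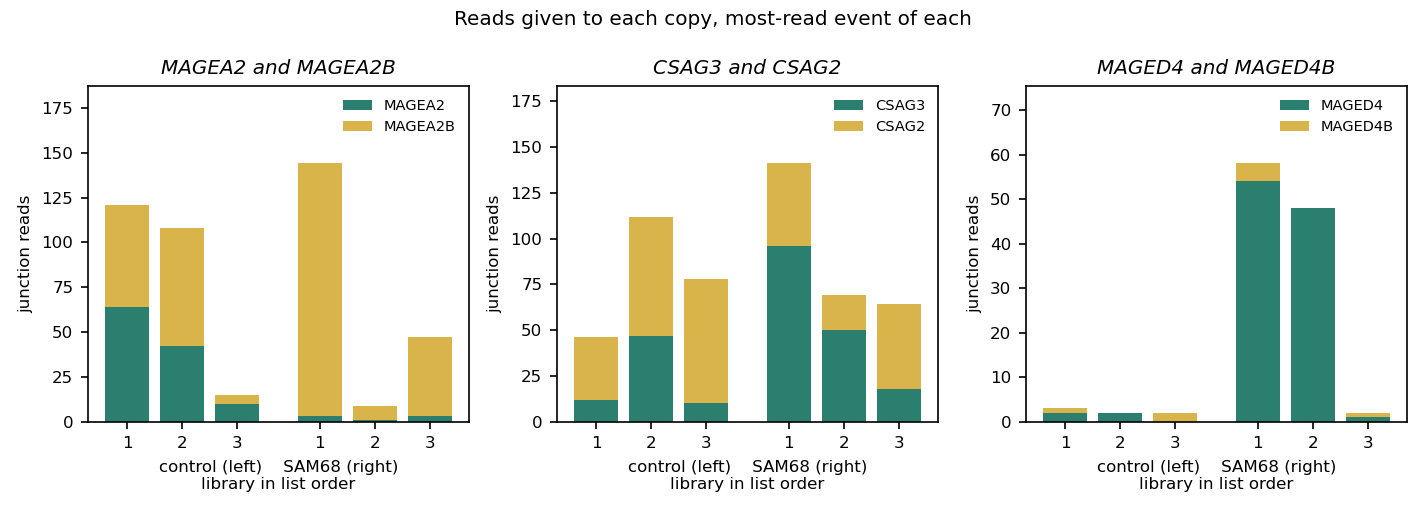
Stacked bars of junction reads given to each copy in each library, for MAGEA2 with MAGEA2B, CSAG3 with CSAG2 and MAGED4 with MAGED4B, from the most-read event of each gene. MAGEA2 holds 64 of 121 reads in control library 1 and 3 of 144 in SAM68 library 1, and the height of the summed bar also changes, from 9 to 144 reads for that pair.

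The remaining pairs were compared for completeness. MAGEA3 had no row to set beside MAGEA6 or MAGEA12, so those 2 of the 7 pairs gave no test. CSAG1 took 86.3% to 98.3% of the reads of CSAG1 and CSAG3 in the 6 libraries (difference -4.29 percentage points, exact permutation p = 0.2, adjusted p = 0.25). The difference was -6.78 to -1.44 with a library left out and -1.27 with reads summed over all events. CSAG1 was read on a skipped exon and CSAG3 on an alternative 5′ splice site, so this share is not one of matched junctions. MAGEA2 took 21.3%, 18.3% and 4.39% of the reads of MAGEA2 and MAGEA12 in control and 1.44%, 0.5% and 1.60% in SAM68 (exact permutation p = 0.1, adjusted p = 0.25). With reads summed over all events these shares were 49.1%, 33.9% and 13.6% in control and 18.4%, 5.90% and 7.14% in SAM68, so that the groups overlapped (exact permutation p = 0.2). MAGED4 took 66.7%, 100% and 0.0% of the reads of MAGED4 and MAGED4B in control and 93.1%, 100% and 50% in SAM68, on totals as low as 2 reads (exact permutation p = 0.7, adjusted p = 0.7). This share too sets unlike events together, a retained intron of MAGED4 and an alternative 5′ splice site of MAGED4B.

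The spread between libraries of a group was also set against counting noise. For each gene the squared deviations of the reads from their group's mean at equal depth were divided by that mean and averaged over 4 degrees of freedom, so that 1 is the spread of counting alone. The median over 10147 genes was 2.50 and the 95th percentile 8.23. MAGED2 had a spread of 1.18, MAGEA6 1.65, MAGED1 1.87, MAGEA12 2.96 and CSAG1 3.79. The spread was 5.56 for CSAG2, 10.3 for MAGEA2, 11.7 for MAGED4, 19.3 for CSAG3 and 42.4 for MAGEA2B. A spread as large as that of MAGEA2B or larger was found in 0.424% of the genes, and one as large as that of CSAG3 in 1.08%.

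Adding the copies did not bring the spread down to that of the other members. It was 50.3 for MAGEA2 with MAGEA2B, 12 for CSAG3 with CSAG2 and 11.2 for MAGED4 with MAGED4B. This measure grows with the number of reads, which adding copies raises. The largest ratio of RPM within a group was 2.25 for CSAG3 with CSAG2, against 4.59 for CSAG3 and 2.42 for CSAG2 alone. The ratio was 13.8 for MAGEA2 with MAGEA2B and 24.9 for MAGED4 with MAGED4B. RPM values differed at least 4-fold within a group in MAGEA2, MAGEA2B, CSAG3 and MAGED4, against 2.46% of all genes tested and 9.1% of the 2636 genes with a mean of 10 to 60 reads. A library with 0 reads was taken as 1 read for this ratio. Both this limit and the measure of spread were chosen after the values were seen. How reads with several possible places were counted is not given in the sources used here, and its part in the spread was not tested.

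**Figure D3:**
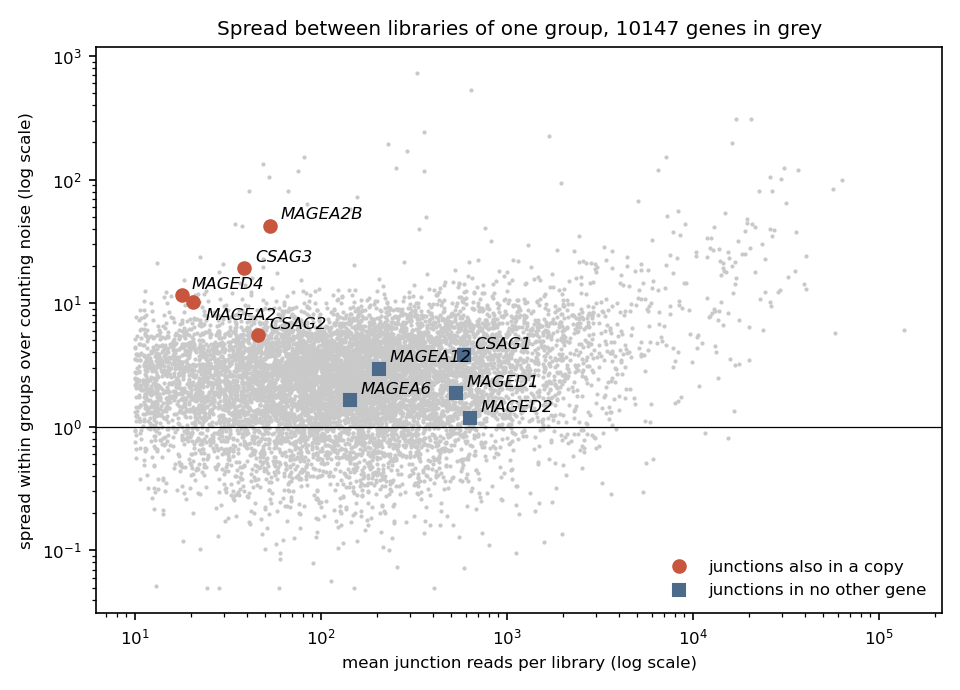
Spread of reads between libraries of a group relative to counting noise (vertical, log scale) against the mean junction reads per library (horizontal, log scale) for 10147 genes (grey). Members whose junctions are in no other gene (squares) lie between 1.18 and 3.79, members with junction windows also found in a copy (circles) between 10.3 and 19.3, and the copies CSAG2 and MAGEA2B (circles) at 5.56 and 42.4; the line marks 1, the spread of counting alone, and spreads under 0.05 are drawn at 0.05.

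Splicing was measured as PSI, the share of the inclusion form after division by the effective length of each form, so that 1 means that every read came from the inclusion form. In the fit over all events, 62 of 66395 had an adjusted p under 0.05 and a PSI change of at least 0.1, or 0.0934%. The share was 0.0738% among skipped exons and 0.133% among alternative 5′ splice sites. Of the 35 events of the members, 2 were past these thresholds, 1 each in CSAG3 and MAGEA2, and both had junctions that a copy shares. Of the 26 events with windows in no other gene, 0 were past them (1 had an unadjusted p under 0.05 together with a PSI change of at least 0.1, in MAGEA12), and the median absolute PSI change of these 26 was 0.0044 against 0.0124 over all events tested.

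The CSAG3 event is an alternative 5′ splice site in a coding exon. The long form keeps 51 further bases at chrX:152759634-152759684, a multiple of 3, so the reading frame is the same in both forms. CSAG3 had 12, 47 and 10 reads of the long form in control and 28, 9 and 18 in SAM68. The short form had 0, 0 and 0 reads in control and 68, 41 and 0 in SAM68. PSI was therefore 1 in all 3 control libraries, whereas SAM68 cells had 0.229, 0.137 and 1, so SAM68 library 3 had the same PSI as the controls. The reads of this event spread 21.0 times more than binomial counting allows, while the fit used the 2.51 shared by all alternative 5′ splice sites. The mean PSI change was -0.54, which is the value that helped to choose the gene and is given with no test.

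CSAG2 holds the same 2 junctions, base for base, as printed above. Its long form had 5, 17 and 7 reads in control and 10, 11 and 5 in SAM68, and its short form 29, 48 and 61 against 35, 8 and 41. Where CSAG3 had no short form, CSAG2 had 29 to 61 reads of it. Added together, the short form had 29, 48 and 61 reads in control and 103, 49 and 41 in SAM68. The PSI of the sum was 0.297, 0.491 and 0.168 in control and 0.210, 0.228 and 0.288 in SAM68, so the groups overlapped and the change was -0.076 (quasi-binomial fit over all events with limma moderation, adjusted p = 0.822).

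CSAG2 had 1 further event, a 173-base coding exon. Its inclusion form had 35, 35 and 25 reads in control and 21, 23 and 9 in SAM68, and its skipping form 1, 0 and 2 against 4, 22 and 2. PSI was 0.946, 1 and 0.862 in control and 0.724, 0.343 and 0.692 in SAM68, without overlap (change -0.35, quasi-binomial fit with limma moderation, adjusted p = 0.0836). CSAG3 had no matching row for it.

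The MAGEA2 event past the thresholds is a 98-base exon in the 5′ UTR, at chrX:152751725-152751822, which the canonical transcript leaves out. Its inclusion form had 1, 4 and 1 reads in control and 47, 3 and 0 in SAM68, and its skipping form 57, 1 and 2 against 0, 1 and 3. PSI was 0.00995, 0.696 and 0.223 in control and 1, 0.632 and 0 in SAM68. The groups overlapped, and control library 1 and SAM68 library 1 held most of the reads. The change of 0.23 had an adjusted p of 2.37e-07 in the quasi-binomial fit with limma moderation, 0.784 without control library 1 (change 0.085) and 0.801 without SAM68 library 1 (change 0.0065). The reads of this event spread 19.9 times more than binomial counting allows, while the fit used the 2.30 shared by all skipped-exon events.

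The matching exon of MAGEA2B, at chrX:152716648-152716745, had 7, 54 and 1 inclusion reads in control and 13, 0 and 4 in SAM68, with 16, 11 and 0 skipping reads against 17, 0 and 6. In control library 1 the skipping reads lay mostly on MAGEA2, and in control library 2 the inclusion reads lay mostly on MAGEA2B. Summed over the copies, PSI was 0.0591, 0.735 and 0.364 in control and 0.669, 0.632 and 0.203 in SAM68. The groups overlapped and the change was 0.12 (quasi-binomial fit with limma moderation, adjusted p = 0.532).

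**Figure D4:**
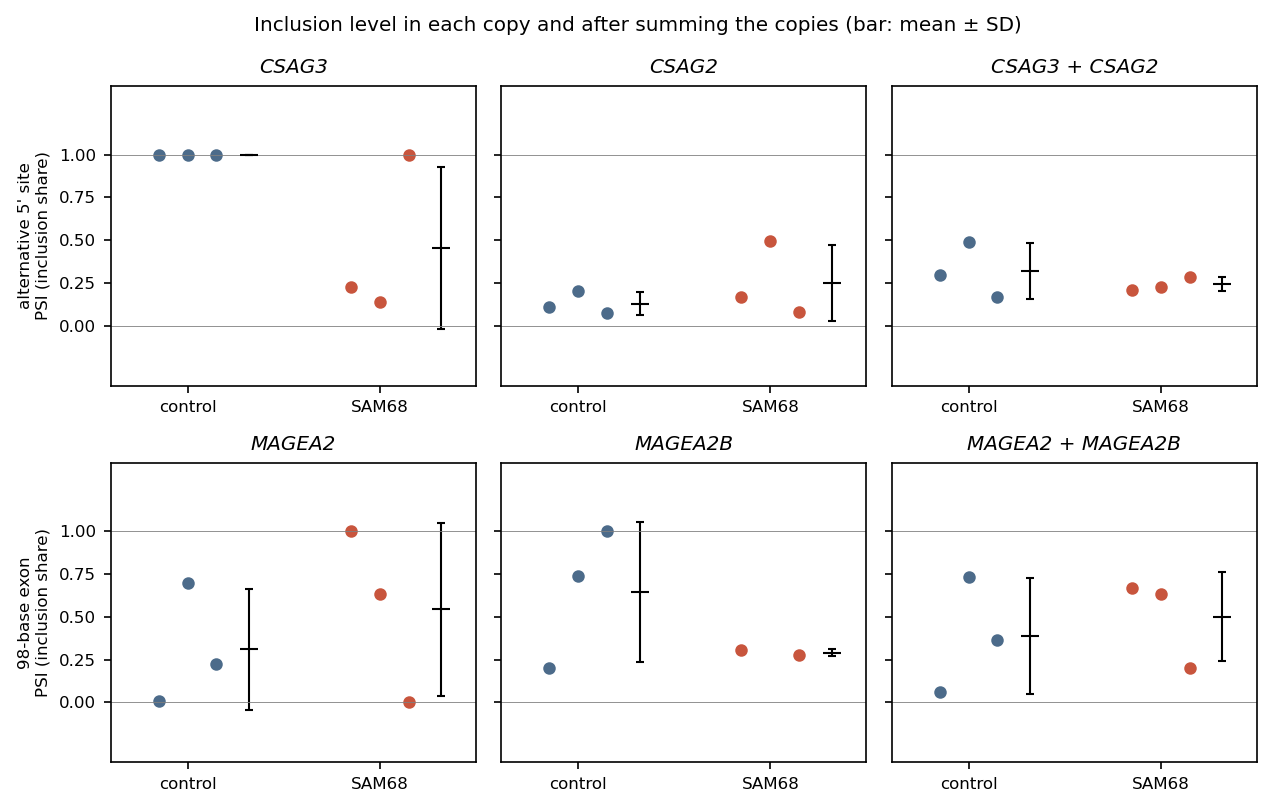
PSI per library (points) with the mean and SD for the CSAG alternative 5′ splice site (upper row) and the MAGEA 98-base exon (lower row), in each copy and after adding the reads of the copies; MAGEA2B has no point for SAM68 library 2, which had 0 reads. The change of -0.54 in CSAG3 alone is -0.076 in the sum, and that of 0.23 in MAGEA2 alone is 0.12.

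Other events of the MAGEA2 pair also differed between libraries of the same group. In the most-read event of each copy, a 120-base exon of the 5′ UTR had a PSI of 0.934 or more in every library except control library 3 of MAGEA2, at 0.439, yet its inclusion reads were 64, 42 and 6 against 3, 1 and 3 in MAGEA2 and 56, 66 and 5 against 136, 8 and 44 in MAGEA2B. Between other flanking exons the same 120-base exon had a PSI of 0.148 in control library 2 of MAGEA2, on 1 inclusion and 3 skipping reads. In control library 1 of MAGEA2B it was 0.511, on 14 inclusion and 7 skipping reads, in an event with too few reads to be tested. A 79-base 5′ UTR exon of MAGEA2 had a PSI of 0.897, 0.75 and 0.455 in control and 0.385, 0 and 0 in SAM68, a mean change of -0.57. Its inclusion form had 14, 24 and 4 reads in control and 4, 0 and 0 in SAM68, and its skipping form 1, 5 and 3 against 4, 1 and 3. This event reached the minimum of reads only through control, so its values are given as a description. The MAGEA2B exon of 82 bases had 4, 0 and 21 inclusion reads and 34, 39 and 0 skipping reads in control, and 56, 16 and 0 inclusion and 44, 0 and 24 skipping reads in SAM68. Its PSI thus took the values 0 and 1 in libraries of both groups.

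A form with 0 reads in 1 library and at least 10 in another library of the same group was taken as a sign of such swings, a rule set after the values were seen. Over all events tested, 4.34% met it. Among the members' events it was met by 4 of the 9 with a shared window, which were both events of MAGED4, the CSAG3 event and the 98-base exon of MAGEA2, and by 0 of the 26 with windows in no other gene. It was met by 6 of the 12 tested events of the copies CSAG2 and MAGEA2B, all in MAGEA2B. Of the 9 events, 7 reached the minimum of reads only through 1 of the groups, all 7 in MAGEA2 or MAGED4.

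The 2 retained-intron events of MAGED4 lie between exons 3 and 4 and between exons 6 and 7 of the canonical transcript. The first had 3, 0 and 0 spliced reads in control and 9, 79 and 0 in SAM68, and the second 0, 1 and 0 against 54, 48 and 0. Reads of the retained form were 2, 1 and 0 in control and 0, 0 and 1 in SAM68 in both events. SAM68 library 1 was read mainly on the second intron and SAM68 library 2 on both. Both events reached the minimum of reads only through SAM68. The 2 events of MAGED4B, a 43-base coding exon and an alternative 5′ splice site that moves an exon end by 12 bases, had 0 to 4 reads of a form in any library.

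MAGEA12 gave the largest PSI change among the members without shared windows. Its 106-base exon in the 5′ UTR, at chrX:152735148-152735253, had 111, 88 and 95 inclusion reads in control and 126, 109 and 104 in SAM68. The skipping form had 126, 100 and 123 reads in control and 79, 90 and 81 in SAM68. PSI was 0.318 ± 0.016 in control and 0.428 ± 0.036 in SAM68 (SD, n = 3 each), and every SAM68 library, from 0.401 to 0.469, was above every control library, from 0.299 to 0.328. The change of 0.11 had an adjusted p of 0.578 over all skipped-exon events (quasi-binomial fit with limma moderation). Groups that do not overlap were found in 6.1% of all events tested and in 4 of the 35 of the members, and groups that do not overlap with a PSI change of at least 0.1 in 1.64% of all events.

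The same 106-base exon reached from another first exon of MAGEA12 had 84, 81 and 79 inclusion reads against 107, 100 and 88, and few skipping reads, from 0 to 6. Its PSI was 0.920 ± 0.037 in control and 0.967 ± 0.034 in SAM68, and the groups overlapped (quasi-binomial fit with limma moderation, adjusted p = 0.699). Both events of this exon count the same junction to the following exon, so they share inclusion reads and neither PSI belongs to a single first exon. MAGEA6 had 1 event, a 59-base exon in the 5′ UTR, with 6, 12 and 11 inclusion reads against 1, 11 and 5 and 112 to 175 skipping reads. Its PSI was 0.048 ± 0.011 in control and 0.029 ± 0.026 in SAM68 (adjusted p = 0.699 in the same fit).

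CSAG1 had 8 events, all of them tested and 0 past the thresholds. Its most-read event, a 151-base coding exon, had a PSI of 0.887 ± 0.018 in control and 0.905 ± 0.0088 in SAM68 (SD, n = 3 each). An event scored as an alternative 3′ splice site of 361 bases had 0.80 ± 0.023 against 0.834 ± 0.018. Those bases hold the 151-base exon and the intron after it, and the event counts an inclusion junction and the skipping reads of that exon. The intron was retained in 0 or 1 reads per library, against 242 to 293 spliced reads. An alternative 3′ splice site that adds 7 bases had 0.261 ± 0.052 against 0.263 ± 0.023. A 212-base exon of the 5′ UTR had 15, 10 and 10 inclusion reads in control and 22, 27 and 13 in SAM68, with overlapping PSI values of 0.042 to 0.092 and 0.0522 to 0.13. A neighbouring form of that exon, 4 bases longer, had 0 reads in every control library and 2, 1 and 0 in SAM68.

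**Figure D5:**
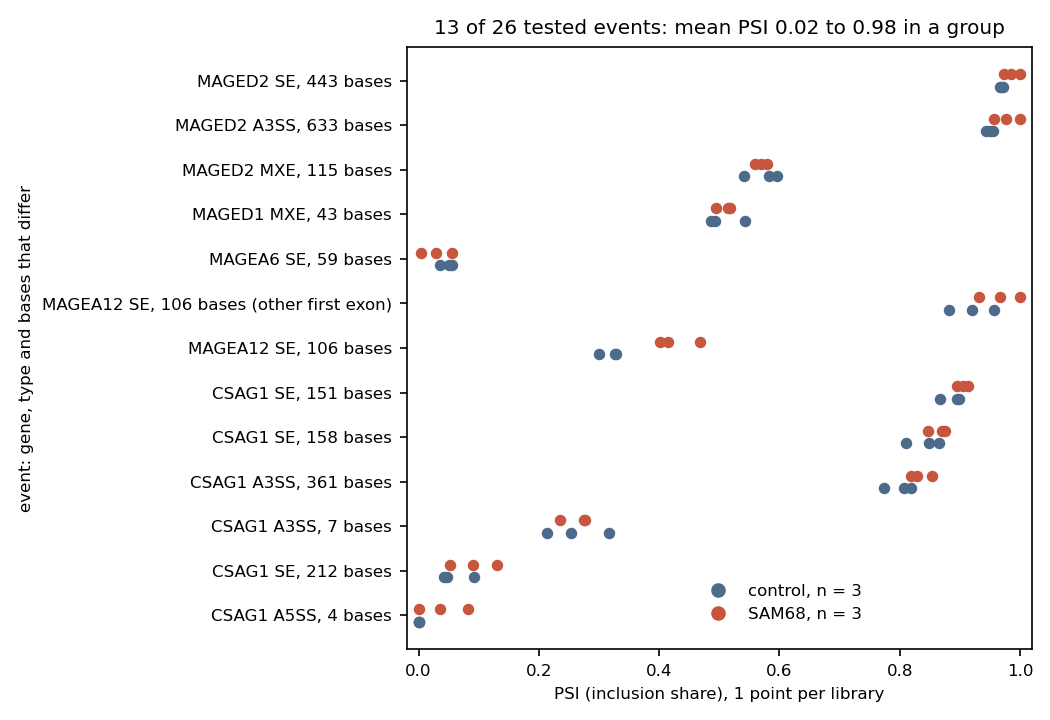
PSI per library for 13 of the 26 tested events of CSAG1, MAGEA6, MAGEA12, MAGED1 and MAGED2, those with a mean PSI between 0.02 and 0.98 in at least 1 group, with control below and SAM68 above on each line. The 106-base exon of MAGEA12 separates the groups, at 0.299 to 0.328 and 0.401 to 0.469, and the MAGED2 events near 1 separate them by less than 0.03 in the mean.

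The MAGED1 and MAGED2 events were mostly at the ends of the scale. Of the 8 events of MAGED1, the largest change was -0.0081, for a 74-base exon skipped by 3 reads in SAM68 library 2 and by 0 in the others. The 43-base coding exon of MAGED1, whose junction was printed above, had a mean of 524 reads, of which 1, 0 and 6 skipped the exon in control and 0, 0 and 0 in SAM68. As 1 of a pair of exons scored as mutually exclusive it had a PSI of 0.507 ± 0.030 in control and 0.508 ± 0.013 in SAM68 (SD, n = 3 each), a change of 0.0012. The other exon of that pair, a 63-base coding exon, was the most-read event of MAGED1. It was skipped by 1 read of SAM68 library 2 and by 0 reads in the other libraries. Both exons of the pair were thus mostly included together. A further exon of 168 bases and one of 170 bases were included in 0 to 4 reads per library.

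In MAGED2, a partly coding exon of 443 bases was skipped by 9, 8 and 10 reads in control and by 0, 4 and 8 in SAM68. Its PSI was 0.969 ± 0.0027 in control and 0.986 ± 0.013 in SAM68, and the alternative 3′ splice site read from the same skipping reads had 0.950 ± 0.0057 against 0.978 ± 0.021 (SD, n = 3 each). The groups of both events did not overlap, at 0.968 to 0.973 against 0.974 to 1 for the first. The adjusted p values were 0.699 and 0.805 (quasi-binomial fit with limma moderation), and both events share 1 set of skipping reads. The mutually exclusive pair of MAGED2 had 0.573 ± 0.029 against 0.569 ± 0.0096, and the other 4 events had 0 to 2 skipping reads in any library.

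Of the genes of the same pathways, other MAGE and cancer-testis genes were represented by 12 of 48 symbols, 11 of them tested, and 0 passed the thresholds. An unadjusted p under 0.05 in limma was found for 3, against 12.1% of all genes. These were GAGE1 (log2 difference 0.36), CTAG1B (-1.09) and GAGE12J (-1.08). This list includes the copies CSAG2 and MAGED4B. MAGEA10 had 150, 168 and 191 reads in control and 167, 181 and 131 in SAM68, and MAGEA4 159, 156 and 166 against 169, 148 and 93. PRAME, another cancer-testis gene, had 1674, 2002 and 1704 against 1981, 1502 and 1653. The median log2 difference of the 11 genes was -0.11, against -0.03 over all genes tested. Of 7 partners of MAGE proteins and their targets, 6 were tested and 0 passed (4 had an unadjusted p under 0.05 in limma), with a median of -0.18. TRIM28, the ligase bound by MAGEA3 and MAGEA6, had 1643, 1769 and 1770 reads against 1843, 1491 and 1574.

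Type I MAGE genes are known to be silenced by DNA methylation. Of 7 genes whose proteins set, copy or remove this mark, 6 were tested and 0 passed both thresholds (2 had an unadjusted p under 0.05 in limma). Their median of -0.23 mixes genes of opposite roles, since TET2 (-0.70) and TET3 (-0.22) belong to the family that removes the mark. DNMT3A, a methyltransferase that sets new marks, had 152, 162 and 135 reads in control and 87, 88 and 80 in SAM68, without overlap. Its log2 difference of -0.72 had an adjusted p of 0.0465 in limma but was below the limit of 1. DNMT1, which copies marks at replication, had 840, 923 and 893 reads against 862, 765 and 903.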

How the data were processed

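RNA from 3 control and 3 SAM68 libraries was sequenced as read pairs on a NovaSeq. The first 18 bases were trimmed, and the submitters' processing notes name fastp 0.20.0, HISAT2 2.1.0 and CASAVA 1.4 on GRCh38. The authors deposited 5 rMATS tables (alternative 3′ and 5′ splice sites, mutually exclusive exons, retained introns and skipped exons) whose cells hold comma-joined lists of junction read counts, inclusion and skipping, 1 value per library. The rMATS version is not given in the sources used here. The list of control values comes first by the order that the paper uses. The deposited PSI lists (a fraction from 0 to 1) served only to check the counts. Columns with the authors' own p-values, false discovery rates and differences of PSI between the groups were not used.

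In the table of alternative 3′ splice sites 19 lines were blank and 275 rows had lists regrouped by a spreadsheet. Of these 162 could be recovered from the PSI values and 113 were left out. A further 679 rows also allow another reading and were kept as printed.

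Each gene was represented by its most-read event, scaled to RPM, and tested with limma 3.58.1 (R 4.3.3) on log2(RPM + 0.5). This replaced a planned count model, which was not run. Events were tested with a quasi-binomial model whose dispersion was moderated by limma within each event type. The prior was infinite, so 1 spread (2.01 to 2.53) served all events of a type, and an event whose own spread is far larger is tested against too small a spread. Residual degrees of freedom came from groups holding both forms. Events and genes needed a mean of 10 reads, and calls an adjusted p under 0.05 (Benjamini-Hochberg) with a PSI change of 0.1 or a log2 difference of 1. On simulated data, 172 of 200 event shifts of 0.3 PSI and 200 of 200 4-fold gene changes were recovered. Of the unchanged, 5 events and 0 genes were called. All simulated events had 1 common spread, as the fit assumes, and only well-read events of middle PSI were shifted. Events of far larger spread were therefore not covered. Shares of reads between copies were tested by two-sided exact permutation.

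Members, lists and markers were chosen with earlier results of these data known. Named were all members with their most-read and called events, and for MAGED1 and MAGED2 those with the largest changes. Further events of MAGEA2, MAGEA2B, MAGEA12, CSAG1 and CSAG2, and examples from the lists of other cancer-testis genes, partners and DNA methylation genes, were chosen after their values were seen. Exon positions are those of GENCODE 44.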

Additional observations from a re-analysis of the deposited data

How the results depend on the processing

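The number of member events past the thresholds was 2 and fell to 0 with each event's own dispersion, with limma run on logit-transformed PSI and, in alternatives chosen after seeing the data, with all libraries counted as residual degrees of freedom or with matched copies summed. It was 1 to 2 with a library left out, as the MAGEA2 event was lost without control library 1 or SAM68 library 1. Member genes past the thresholds numbered 1, and 0 with reads summed over skipped-exon events or, chosen after seeing the data, with the copies summed. The count was 0 to 3 with a library left out, 0 without control library 1, control library 2 or SAM68 library 1, and 3 (CSAG3, MAGEA2 and MAGED4) without SAM68 library 3. Over all events 62 were called, 3 with limma run on logit-transformed PSI, 2 with own dispersion, 18 with all libraries as residual degrees of freedom and 172 with no limit on the PSI change. Over all genes 5 were called, 3 with median-ratio size factors, sums over skipped exons or copies summed, and 1 to 12 with a library left out. Directions turned in values that were not called: the PSI change of the CSAG2 splice site (-0.00432 to 0.204 with a library left out) and of the MAGEA2B 120-base exon (-0.0219 to 0.0110), reads of MAGEA12 (log2 0.058 with skipped-exon sums, -0.17 to 0.0505 with a library left out), MAGED1 (-0.044 with skipped-exon sums, -0.0393 to 0.0665) and MAGEA2B (-0.55 to 1.39), the MAGED4 share (-2.30 to 47.7 percentage points) and the MAGEA2 share of MAGEA2 and MAGEA2B (10.1 percentage points in the 98-base exon pair, chosen after seeing the data, and -15.7 with both equal-length pairs summed). The causes were not tested. KHDRBS1 kept its call in all 10 alternatives.

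No paired analysis was possible because the lists carry no replicate numbers. edgeR with TMM or DESeq2 size factors and DESeq2 were not run, although the lists hold whole read counts. Genes with few reads, such as MAGED4B, limit what can be compared.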

Other observations

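Large differences between libraries of the same group were also seen in other cancer-testis genes that belong to families of close relatives. The genes named here were chosen after their values were seen. CTAG1B, which encodes the tumour antigen NY-ESO-1, had 26, 37 and 256 reads in control and 32, 28 and 22 in SAM68. Control library 3 stood far above the others, and the spread was 80.4 times counting noise. XAGE1A had 23, 13 and 83 reads in control and 29, 22 and 8 in SAM68, and its relative XAGE1B had 27, 82 and 27 against 90, 49 and 17. The control library with the highest value differed between XAGE1A (library 3) and XAGE1B (library 2). GAGE12J had 85, 51 and 26 reads in control and 29, 7 and 38 in SAM68, and GAGE2A, of the same family, had 13057, 14567 and 14980 against 15295, 13143 and 13042. GAGE1, also of this family, had 169, 205 and 184 against 191, 244 and 251. The spread over counting noise was 14.1 for GAGE12J, 20.8 for XAGE1A, 19.7 for XAGE1B and 6.20 for GAGE1. It grows with the number of reads, and the 22.1 of GAGE2A went with libraries that differed at most 1.11-fold in RPM within a group. These 4 genes, CTAG1B, XAGE1A, XAGE1B and GAGE12J, are those of the 11 tested cancer-testis genes with at least a 4-fold difference within a group, against 2.46% of all genes and 9.1% of those with a mean of 10 to 60 reads, a range that CTAG1B exceeds.

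MAGEA10 had a spread of 3.4 and MAGEA4 one of 4.10, both below the 95th percentile of 8.23 over all genes. How reads with several possible places were counted was not tested.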
